A study of Mus musculus with 2 samples.

Results

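Among cells of the injured mouse tendon area, a set of fibroblasts carried Cd55 and Prss23 together and had little Pi16, Gdf10, Acan or Kera RNA. These Cd55+ Prss23+ cells, named Cd55 and Prss23 fibroblasts in the plots, numbered 276 of 20036 cells from both libraries, and 11078 of those 20036 cells were stromal. A stromal cell had at least 2% of its unique molecular identifiers (UMIs, 1 per captured RNA molecule) on Col1a1, Col1a2 and Col3a1 and at most 1 UMI of Ptprc and Pecam1 together. A Cd55+ Prss23+ cell was a stromal cell with at least 3 UMIs of Cd55 and at least 3 of Prss23, at most 1 each of Pi16, Gdf10 and Acan, and at most 4 of Kera. The measured values of these 11 genes chose the cells, so their levels are a description and support nothing. Cd55 has a near-identical neighbour, Cd55b, and the sources used here do not say how reads that match both were counted. In WT, Cd55 was at 518 CPM (counts per 1000000 UMIs of the set) in these cells and 88.3 in the other stromal cells, and Prss23 at 882 and 129. In F592A, Cd55 was at 334 and 77.0 CPM and Prss23 at 806 and 128.

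The study profiled single cells of the injured tendon area of 12-week-old mice 14 days after surgery. It used 1 droplet library (10x Genomics) from mice labelled TrkA WT, titled Control, and 1 from mice labelled TrkA F592A, titled INMPP1. TrkA is the receptor tyrosine kinase of nerve growth factor, and F592A is a point mutation that makes the kinase sensitive to the inhibitor named in the title. Each library came from a pool of 3 mice, so no replicate libraries exist and no test was run. The sources used here do not say if WT mice were given the inhibitor too, or at what dose, and transcript counts cannot show a point mutation. Genotype, inhibitor and library cannot be told apart in any comparison of F592A with WT.

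Cd55, also called decay-accelerating factor, is a membrane-anchored inhibitor of complement and a marker of synovial lining fibroblasts, and Prss23 is a secreted serine protease. Fibroblasts of fascia, adventitia and the loose sheath around tendon differ from tenocytes: they carry matrix such as fibulins and tenascin-X and markers such as Pi16, Dpp4 and Cd248, whereas tenocytes carry Scx, Tnmd, Kera and Fmod. After tendon injury, cells of the sheath and surrounding tissue can divide and migrate into the wound.

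The WT library held 11485 cells and the F592A library 8551 after limits of at least 1000 UMIs, at least 500 genes and at most 15% mitochondrial UMIs per cell. Of the deposited barcodes, 764 occurred in both libraries, and the 114 WT and 113 F592A cells with such barcodes that met the limits were left out; none was a Cd55+ Prss23+ cell. Cells kept held 214254170 UMIs in WT and 175731381 in F592A. The Cd55+ Prss23+ cells held 6314605 UMIs in WT and 1291247 in F592A, so values in F592A are the less precise. Their median depth was 26099 UMIs in WT (range 6240 to 71760) and 27543 in F592A (range 4615 to 56977), against 22206.5 and 24689 in the other stromal cells. All intervals below are 95% intervals of counting error only.

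Cd55+ Prss23+ cells were the smaller set in F592A. They made up 230 of 11485 cells in WT, or 2.00% (exact binomial interval 1.75 to 2.28%). In F592A they made up 46 of 8551 cells, or 0.538% (0.394 to 0.717%). The F592A share was 0.269 of the WT share (Katz log interval 0.196 to 0.368), and among stromal cells alone 0.996% of 4618 cells against 3.56% of 6460 gave a ratio of 0.280 (0.204 to 0.383). The stromal share itself differed little, with a ratio of 0.960 (0.936 to 0.985).

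Other sets of stromal cells stood at other ratios. Pi16 cells, with at least 3 UMIs of Pi16, numbered 767 in WT and 687 in F592A, a ratio of shares of 1.20 (1.09 to 1.33). Gdf10 cells numbered 37 and 150, a ratio of 5.45 (3.80 to 7.79). Tenocyte-like cells, chosen by Kera and Tnmd, numbered 214 and 239, a ratio of 1.50 (1.25 to 1.80). Cells with only Cd55 or only Prss23 at 3 UMIs lay between: the ratio was 0.424 (0.268 to 0.671) for 76 against 24 Cd55-only cells and 0.641 (0.524 to 0.784) for 287 against 137 Prss23-only cells. Shares of cells from 1 library compete with each other, so these ratios are not independent.

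Each step of the rule took a larger share in F592A. In WT 926 stromal cells and in F592A 556 had at least 3 UMIs of both Cd55 and Prss23. The Pi16 limit removed 527 of them in WT and 411 in F592A, and the Gdf10, Acan and Kera limits removed a further 169 and 99. Over all stromal cells, Cd55 was at 106 CPM in WT and 79.8 in F592A, Prss23 at 160 and 135, and Pi16 at 146 and 260. The Acan limit took 393 WT cells to 239 and 139 F592A cells to 53, although Acan over all stromal cells was at 448 CPM in WT and 414 in F592A. Whether the smaller share reflects fewer such cells or cells that crossed the Pi16 limit was not tested. Just inside the limits, 35 WT and 14 F592A cells had exactly 3 Cd55 UMIs, and 14 and 4 had exactly 3 Prss23 UMIs. Just outside, 50 and 17 cells had 2 Cd55 UMIs, and 22 and 4 had 2 Prss23 UMIs.

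The share was lower in F592A under every other setting of the rule that was tried, but none changed its 4 upper limits. With at least 5 UMIs of both genes, 157 WT and 25 F592A cells remained, a ratio of 0.214 (0.140 to 0.326). After every cell was thinned to 10000 UMIs, 173 and 30 cells met the rule, a ratio of 0.216 (0.147 to 0.317). A set that did not read Cd55 or Prss23, stromal cells with at least 2 UMIs each of Efemp1 and Olfml2a and the same 4 upper limits, held 103 WT and 14 F592A cells, a ratio of 0.183 (0.105 to 0.319). This set was chosen after seeing the data, and 84 of its WT cells and 9 of its F592A cells were also Cd55+ Prss23+ cells. Before the 4 upper limits, stromal cells with at least 3 UMIs of both genes numbered 926 of 11485 cells in WT and 556 of 8551 in F592A. The Pi16 limit left 399 WT and 145 F592A cells, the Acan limit 239 and 53, and all 4 limits 230 and 46. The F592A share thus fell further below the WT share at these limits, and other values of them were not tried.

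**Figure D1:**
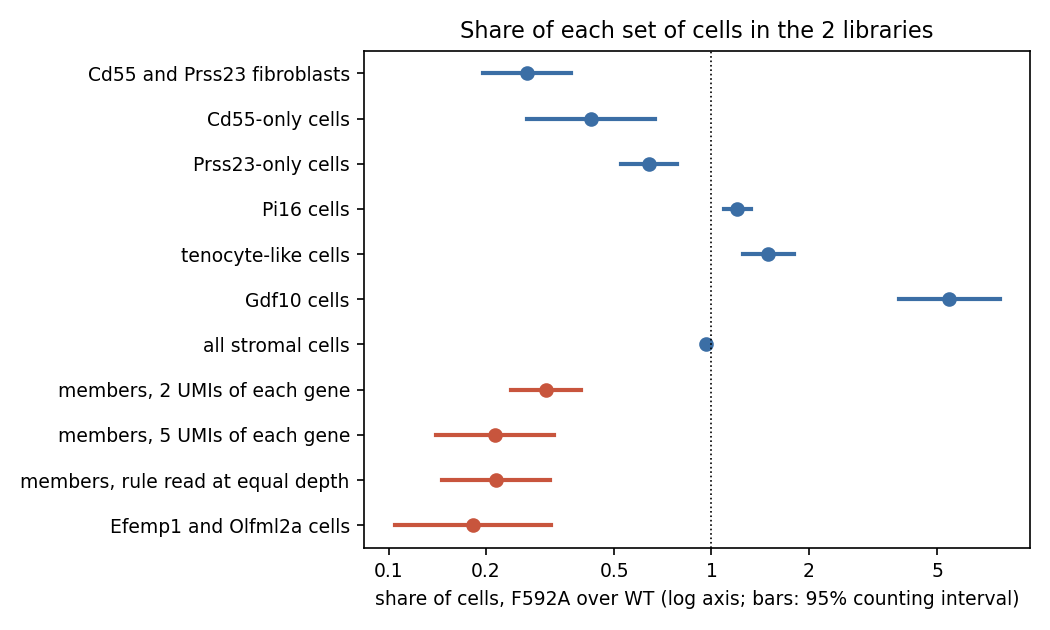
Ratio of the share of cells in F592A over that in WT, 1 library each, on a log axis, for sets of stromal cells (blue) and for other ways to choose the Cd55 and Prss23 fibroblasts, called members here (red), with 95% Katz intervals of counting error. The ratio is 0.269 for the Cd55 and Prss23 fibroblasts, 1.20 for Pi16 cells and 5.45 for Gdf10 cells, and every red interval lies below 1.

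The label was checked against 4 markers that the rule did not read. Efemp1 encodes fibulin-3, a glycoprotein of elastic tissue matrix, and Olfml2a encodes a secreted matrix protein with an olfactomedin domain. Cd248, or endosialin, is a membrane protein of stromal cells, and Tnxb encodes tenascin-X, a matrix protein that binds collagen fibrils. Levels of these 4 are given as descriptions, because cells picked by Cd55 and Prss23 differ from the rest in every gene that goes with them.

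In WT, Efemp1 was at 188 CPM (exact Poisson interval 178 to 199) in Cd55+ Prss23+ cells and 26.7 in the other stromal cells, and in F592A at 121 CPM (103 to 141) and 25.5. Olfml2a was at 141 against 10.3 CPM in WT and at 82.9 against 9.66 CPM in F592A, log2 ratios of 3.78 and 3.10. Cd248 was at 990 against 259 CPM in WT and at 737 against 238 CPM in F592A. All 3 were thus more than 2-fold higher in the set in both libraries. Tnxb was at 461 against 116 CPM in WT and at 300 against 131 CPM in F592A, log2 ratios of 1.99 and 1.20.

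The markers did not reach every cell. All 4 were seen in 121 of 230 WT cells (52.6%, 45.9 to 59.2%) and in 17 of 46 F592A cells (37.0%, 23.2 to 52.5%), against 4.72% and 3.70% of the other stromal cells. Both Efemp1 and Olfml2a were seen in 124 WT and 18 F592A cells. Neither was seen in 38 WT cells (16.5%) and 13 F592A cells (28.3%). With every cell thinned to 5000 UMIs, Efemp1 was seen in 40.0% of the WT and 37.8% of the F592A cells, against 7.63% and 7.27% of other stromal cells and 0.678% and 0.513% of immune cells, which should lack it. Olfml2a was seen in 38.7% and 26.7% of the set, against 3.26% and 2.63% of other stromal cells and 0.678% and 0.769% of immune cells. Unthinned, Efemp1 was seen in 157 WT and 28 F592A cells of the set and Olfml2a in 159 and 23. Among thinned WT cells of other sets, Efemp1 was seen in 31.2% of Pi16 cells, 23.6% of Prss23-only cells and 10.7% of Cd55-only cells. Olfml2a was seen in 13.0%, 7.75% and 2.67% of them.

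**Figure D2:**
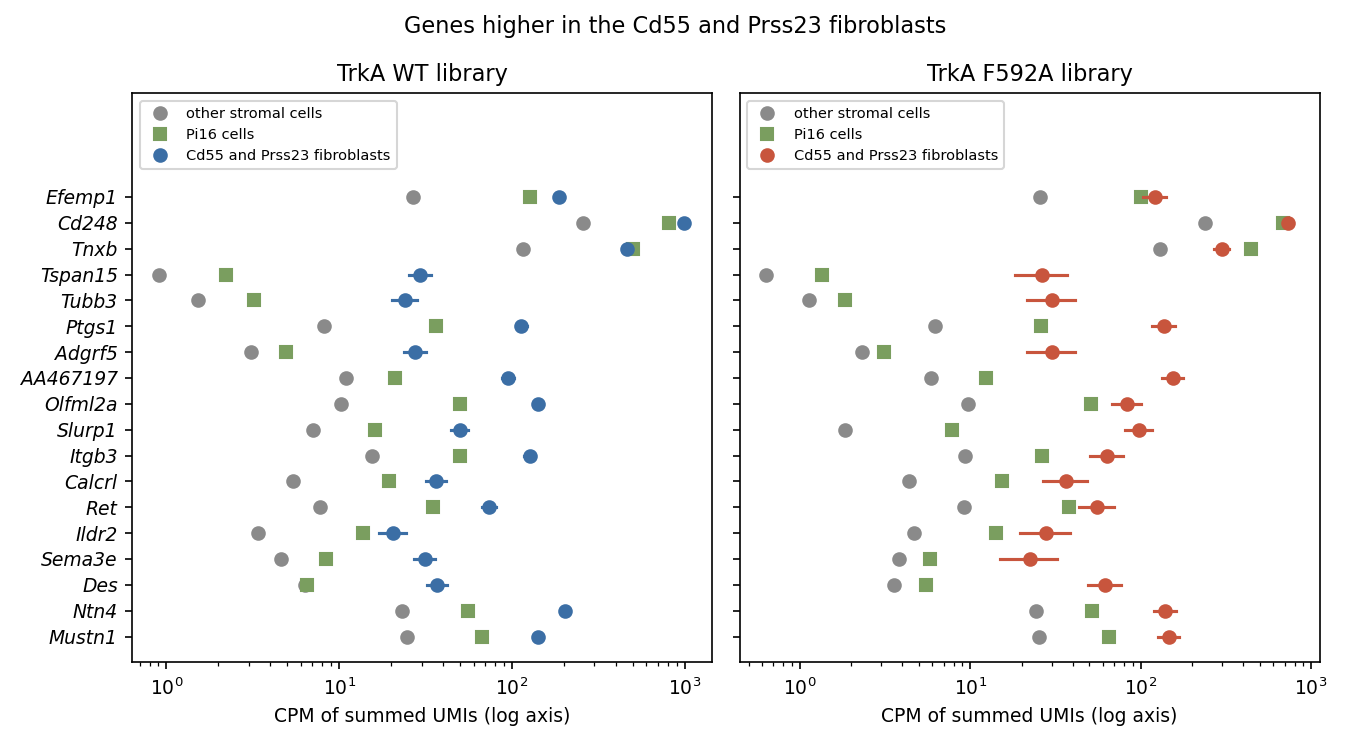
Levels in CPM of summed UMIs, on a log axis, of 3 markers and the 15 named genes in the Cd55 and Prss23 fibroblasts (with exact Poisson 95% intervals), Pi16 cells and other stromal cells of the TrkA WT and TrkA F592A libraries. Ptgs1 lies at 113 and 136 CPM in the Cd55 and Prss23 fibroblasts and at 8.19 and 6.22 CPM in the other stromal cells, while Tnxb lies below the Pi16 cells.

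The start of the Efemp1 gene is shown because Efemp1 is the fibulin that marks the set. The window holds 250 bases before to 50 after the RefSeq start (GRCm38.p6, chr11:28852955-28853254, plus strand), 5′ to 3′, with the 1 match to the AP-1 motif TGANTCA in capitals. That motif, searched on both strands, was in 7.93% of 27025 RefSeq promoter windows of the same length. Of the 6 genes Cd55, Prss23, Efemp1, Olfml2a, Cd248 and Tnxb, 5 had a window. In 2 of those, Efemp1 and Tnxb, which the rule did not read, the motif was found. A match describes the letters and says nothing of binding.

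Efemp1: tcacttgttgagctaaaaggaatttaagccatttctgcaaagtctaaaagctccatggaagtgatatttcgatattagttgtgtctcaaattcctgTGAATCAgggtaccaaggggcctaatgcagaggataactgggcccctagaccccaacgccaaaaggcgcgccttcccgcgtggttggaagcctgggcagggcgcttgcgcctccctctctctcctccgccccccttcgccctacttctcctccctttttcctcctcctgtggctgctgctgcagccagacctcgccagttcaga

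Across the genome, 5562 genes were compared between Cd55+ Prss23+ cells and the other stromal cells of the same library. Called here means at least 2-fold apart in the same direction in both libraries, with at least 20 CPM in the higher set. By this rule 176 genes (3.16%) were higher and 158 (2.84%) lower. The median log2 ratio over all genes was 0.20 in WT and 0.18 in F592A, and trimmed-mean (TMM) scaling moved it by −0.22 and −0.20. With TMM factors the split became 119 higher and 209 lower, and with median-of-ratios factors 120 and 208, so the balance of higher and lower genes depends on the scaling.

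Tspan15, Tubb3 and Ptgs1 led the genes higher in the set in both libraries. Tspan15, a tetraspanin partner of the ADAM10 protease, was at 29.3 CPM (25.2 to 33.8) in WT against 0.903 in the other stromal cells, and at 26.3 CPM (18.2 to 36.8) in F592A against 0.633. Most cells of the set lacked it: it was seen in 28 of 230 WT cells (12.2%) and 6 of 46 F592A cells (13.0%). In the other stromal cells it was seen in 0.963% and 1.18%. Tubb3, a tubulin best known from neurons, was at 23.9 against 1.53 CPM in WT and 30.2 against 1.13 CPM in F592A. Ptgs1, the cyclooxygenase COX-1 of prostaglandin synthesis, was at 113 (105 to 122) against 8.19 CPM in WT and 136 (117 to 158) against 6.22 CPM in F592A. In both libraries the intervals of these 3 genes lay far above the level in the other stromal cells.

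Receptors among the named genes came next. Ret, the receptor tyrosine kinase of the GDNF family ligands, was at 74.1 against 7.79 CPM in WT and 55.8 against 9.20 CPM in F592A. Itgb3, the beta subunit of an integrin that binds fibronectin and vitronectin, was at 127 against 15.5 CPM in WT and 63.5 against 9.25 CPM in F592A. Calcrl, the receptor for adrenomedullin and calcitonin gene-related peptide, had log2 ratios of 2.76 and 3.06. Adgrf5, an adhesion G-protein-coupled receptor, was at 27.6 against 3.09 CPM and 30.2 against 2.33 CPM. In F592A, 5 cells held 38 of its 39 UMIs. All 4 receptor genes were thus more than 2-fold higher in each library. Of the neurotrophin receptors, 3 were low in the set: Ntrk2 was at 1.90 CPM in WT and 8.52 in F592A, Ntrk3 at 0.475 and 3.10 CPM, and Ngfr at 0.158 CPM and 0.

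The rest of the 15 highest were of several kinds. Ntn4, a netrin of basement membranes, was at 203 against 23.2 CPM in WT and 139 against 24.3 CPM in F592A. Sema3e, a class 3 semaphorin, was at 31.4 against 4.60 CPM and 22.5 against 3.84 CPM. Des, the muscle intermediate filament desmin, was at 37.1 against 6.35 CPM and 62.0 against 3.56 CPM. Mustn1 was at 141 against 24.6 CPM and 146 against 25.3 CPM, AA467197 at 95.3 against 11.0 CPM and 155 against 5.90 CPM, and Ildr2 had log2 ratios of 2.60 and 2.59. In F592A, 5 cells held 71 of 80 Des UMIs, and 5 cells held 156 of 200 AA467197 UMIs. Slurp1, a small secreted protein, was at 49.7 against 7.09 CPM in WT and 97.6 against 1.83 CPM in F592A, but 107 of its 126 F592A UMIs came from 1 cell. Without the top cell of each library, its log2 ratios were 2.48 and 3.06.

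Cartilage genes stood among the 10 genes lowest in the set, beside genes of other kinds such as Kcnk1, Gpha2 and Mstn. Log2 ratios were −5.92 and −6.06 for Gpha2 and −7.84 and −5.10 for Mstn, on 1 F592A UMI each. Chad, the cartilage protein chondroadherin, was at 2.22 CPM in the set and 122 in the other stromal cells of WT, and at 6.20 and 163 CPM in F592A. Mmp13, a collagenase, was at 3.33 against 182 CPM and 0.774 against 287 CPM. In WT, Col2a1 was at 0.634 against 45.3 CPM and Col11a2 at 0.950 against 61.5 CPM, log2 ratios of −6.16 and −6.02. In F592A the set had 0 UMIs of Ucma, Kcnk1 and Hapln1, which allows up to 3 counts, or 2.32 CPM, in that library. Against this floor they were at least 12.2-fold, 9.41-fold and 9.11-fold lower than in the other stromal cells. Since the rule set limits on Acan and Kera, low cartilage and tendon genes follow partly from it.

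Gene lists ordered the set among known fibroblast types. Of 13 fascial and adventitial genes tested, 9 were at least 2-fold higher in both libraries and 0 lower, with median log2 ratios of 1.56 and 1.25 against 0.20 and 0.18 over all genes. Efhd1 had log2 ratios of 2.62 and 2.22 and the chemokine scavenger Ackr3 1.73 and 1.76, whereas Timp2, an inhibitor of matrix proteases, had −1.32 and −0.94. Of 13 tenocyte genes, 12 were lower and 0 higher, with medians of −3.72 and −2.31. Tnmd, the tendon membrane protein tenomodulin, had −5.55 and −4.20. The list of synovial lining and tendon sheath genes was mixed, with 2 of 9 higher and 2 lower. Tppp3, a marker of tendon sheath cells, was at 836 against 168 CPM in WT, log2 ratios of 2.32 and 2.21, while Cilp and Thbs4 were lower, with log2 ratios of −2.60 and −2.44 for Cilp and −2.27 and −1.70 for Thbs4.

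Matrix genes split by kind. Of 9 genes of hyaluronan and versican biology, 5 were higher and 1 lower, with medians of 1.40 and 1.14. Cd44, the hyaluronan receptor, was at 1714 against 313 CPM in WT, with log2 ratios of 2.45 and 2.64, and Cemip, which degrades hyaluronan, had −2.15 and −1.18. Of 15 collagens, 1 was higher and 2 lower: Col5a3, a minor chain of type V collagen, was at 1684 against 297 CPM in WT, log2 ratios of 2.50 and 2.59, while Col12a1 had −1.90 and −1.39 and Col11a1 −4.67 and −2.62. Of 20 elastic fibre genes, 4 were higher, among them Emilin2 (2.54 and 2.37), and 2 lower, with medians of −0.49 and −0.42. Of 19 small proteoglycan and related genes, 3 were higher and 6 lower, and Prelp (1.20 and 1.22) and Fmod (−5.19 and −2.45) stood at opposite sides. Adamts5, the aggrecanase that also cleaves versican, was at 483 against 104 CPM in WT and was the only 1 of 16 matrix proteases called higher.

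The axon guidance, BMP and GDF, and FGF and PDGF lists were called more often than all genes in both directions, on 1 to 3 genes each way. Other signalling lists were not: 0 genes were higher and 1 lower of 16 TGF-β ligand and receptor, 13 TGF-β response and 10 insulin-like growth factor genes. Of 12 axon guidance genes, 3 were higher and 3 lower, and Epha3 had log2 ratios of −2.73 and −1.72. Dkk2, a secreted modulator of Wnt receptors, was the 1 Wnt gene of 11 called, at 2.14 and 2.40. Of 9 BMP and GDF genes, 1 was higher, Fstl1 (1.17 and 1.18), and 2 were lower, among them the BMP antagonist Chrdl1 (−3.36 and −2.23). Of 10 FGF and PDGF genes, 1 was higher, Pdgfc (1.19 and 1.34), and 3 were lower, among them Pdgfrl (−2.82 and −1.66). Of 3 genes tested on the list of neurotrophins, related growth factors and receptors, 0 were higher and 2 lower. Of 29 transcription factors, 5 were higher, among them Creb5 (1.69 and 1.47) and Snai2 (1.28 and 1.57), and 3 were lower, among them the tendon factors Scx (−5.13 and −3.01) and Mkx (−2.68 and −2.22). None of 12 cytokine, 5 Hedgehog, 17 hypoxia or 39 oxidative phosphorylation genes was called. Of 13 complement genes, the lectin pathway protease Masp1 was the 1 called higher (1.39 and 1.36), and 3 were lower, among them clusterin, Clu (−4.28 and −3.03), and the membrane inhibitor Cd59a (−3.42 and −2.81).

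Pi16 cells, which carry a marker of fascial and adventitial fibroblasts, were compared with the set next. Pi16 cells held less Efemp1 (128 CPM in WT, 100 in F592A), Cd248 (814 and 681 CPM) and Olfml2a (49.9 and 51.1 CPM) and more Tnxb (501 and 445 CPM). Over 5518 genes, 68 (1.23%) were at least 2-fold higher in Cd55+ Prss23+ cells than in Pi16 cells in both libraries and 72 (1.3%) were lower. This comparison was added after seeing the data. Tspan15 (log2 ratios 3.73 and 4.30), Tubb3 (2.89 and 4.05) and Adgrf5 (2.49 and 3.28) led here too, with Aqp1, a water channel, at 384 against 62.6 CPM in WT, and S100a4, a calcium-binding protein of motile cells, at 2980 against 792 CPM. Ptgs1, Olfml2a, Slurp1, Itgb3, Calcrl, Ret, Ildr2, Ntn4 and Mustn1 were not among the 15 highest against Pi16 cells. The lowest of those 15 was Cdh13 (1.75 and 2.08). With Pi16 cells as reference, 43 of 47 ratios of named genes left the counting intervals found against other stromal cells, and 1 turned sign. Myoc (−5.20 and −4.43), the matrix protein Smoc2 (−2.25 and −2.05) and the chemokine Cxcl14 (−1.91 and −1.96) were lower than in Pi16 cells.

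The comparison of F592A with WT within the set rested on 46 against 230 cells. Of 6002 genes tested, 57 (0.95%) were at least 2-fold higher in F592A and 171 (2.85%) at least 2-fold lower, where the higher library reached at least 20 CPM. At 1.5-fold, 266 (4.43%) were higher and 633 (10.5%) lower. The median log2 ratio over these genes was −0.12 in the set and −0.10 for the same genes in the other stromal cells, so log2 ratios of the other stromal cells stand beside those of the set. They share their libraries with it.

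Cell cycle genes were lower in F592A. Of 33 cell cycle genes tested, 28 were at least 2-fold lower and 0 higher, with a median of −2.16 against −0.85 in the other stromal cells. These genes were lower in other sets too: Ube2c stood at −4.50 in Prss23-only cells and −2.34 in Pi16 cells, and Top2a at −3.80 and −1.57. In the Cd55+ Prss23+ cells, Ube2c, which hands ubiquitin to mitotic cyclins, was at 158 CPM in WT (49 of 230 cells) and 6.97 in F592A (3 of 46 cells), a log2 ratio of −4.51 (−5.64 to −3.58). Top2a, the topoisomerase that untangles replicated DNA, was at 141 CPM (47 cells) and 4.65 (3 cells), −4.92. Both genes were rare in F592A and present in a minority of WT cells. Hist1h1b, a replication-dependent linker histone, was at 102 CPM (28 cells) and 1.55 (2 cells), and Stmn1, a tubulin-binding protein of dividing cells, at 218 and 29.4 CPM. Cdk1, the mitotic kinase, had −3.51, and Spc25 and Nusap1, both of the mitotic spindle, −5.08 and −4.82.

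These genes depended on which cells were counted. In the 124 WT and 18 F592A cells with both Efemp1 and Olfml2a, a subset chosen after seeing the data, Top2a stood at −3.99 and Ube2c at −3.28. With the rule read after thinning to 10000 UMIs, Top2a stood at −0.66 and Ube2c at −2.63. Scrublet, a doublet caller, marked 3 of 230 WT cells and 0 of 46 F592A cells as doublets, and the list median without them was −2.14.

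The ratio of cycling shares depended on the depth and the minimum of UMIs used. After thinning to 5000 UMIs per cell, 153 of 230 WT cells (66.5%, 60.0 to 72.6%) and 23 of 45 F592A cells (51.1%, 35.8 to 66.3%) had at least 2 cell cycle UMIs, a ratio of 0.768 (0.569 to 1.04) that includes 1. Unthinned, the shares were 99.1% and 89.1%, and after thinning immune cells stood at 70.1% and 66.7%, so this cut does not set the set apart. At 4 UMIs the ratio was 0.442 (0.219 to 0.892). After thinning to 2000 UMIs it was 0.345 (0.161 to 0.741) at 2 UMIs and 0.300 (0.0978 to 0.921) at 4, against 0.745 and 0.481 in the other stromal cells. On 8 mitotic genes, chosen after seeing the data, 48 of 230 WT cells (20.9%, 15.8 to 26.7%) and 3 of 45 F592A cells (6.67%, 1.40 to 18.3%) had at least 2 UMIs, a ratio of 0.319 (0.104 to 0.981). The same count gave 5.64% and 3.00% in the other stromal cells, a ratio of 0.532 (0.437 to 0.648), and 13.0% and 9.48% in immune cells, a ratio of 0.730 (0.603 to 0.885). Pi16 cells had a ratio of 0.329 (0.179 to 0.606) and Prss23-only cells 0.0669 (0.00923 to 0.485), as low as the set or lower. The interval of the set includes the ratios of the other stromal, Pi16 and immune cells.

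Promoters of Ube2c and Cdk1 are shown because both genes were lower in F592A and hold both motifs known from mitotic genes. Each window runs from 250 bases before to 50 after the RefSeq start in GRCm38.p6, 5′ to 3′ along the gene, at chr2:164769679-164769978 on the plus strand and chr10:69352863-69353162 on the minus strand. Capitals mark the CCAAT box (CCAAT) and the cell cycle homology region (TTTGAA), searched on both strands, with 6 and 1 matches in Ube2c and 3 and 2 in Cdk1.

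Ube2c: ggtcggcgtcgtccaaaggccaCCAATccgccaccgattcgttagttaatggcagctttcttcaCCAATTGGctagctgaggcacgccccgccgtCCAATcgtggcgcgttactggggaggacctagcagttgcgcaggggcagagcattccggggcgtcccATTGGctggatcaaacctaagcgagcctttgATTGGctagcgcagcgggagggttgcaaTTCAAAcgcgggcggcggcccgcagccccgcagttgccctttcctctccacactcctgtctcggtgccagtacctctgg

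Cdk1: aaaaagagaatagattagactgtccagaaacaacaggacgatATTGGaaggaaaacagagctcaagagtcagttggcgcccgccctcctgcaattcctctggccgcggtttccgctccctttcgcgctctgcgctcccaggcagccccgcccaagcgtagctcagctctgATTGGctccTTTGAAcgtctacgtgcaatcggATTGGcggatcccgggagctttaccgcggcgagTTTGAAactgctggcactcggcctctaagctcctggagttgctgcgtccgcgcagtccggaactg

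Of 40 cell cycle genes on the list, 33 had a window, of which 28 held a CCAAT box and 18 the TTTGAA motif, and 0 held a TATA box (TATAAA). Over all 27025 windows the shares were 37.9%, 18.1% and 14.2%. Among the named genes lower in F592A, 7 of 8 windows held a CCAAT box and 5 the TTTGAA motif, and among the named genes higher in F592A, 5 of 8 and 0 did. These are descriptions of letters, and the factors that bind them were not measured.

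Signals and receptors lower in F592A included a Wnt ligand and the interleukin-33 receptor. Wnt2 was at 39.3 CPM in WT (34.5 to 44.5), with 248 UMIs in 79 of 230 cells, and at 3.10 CPM in F592A (0.844 to 7.93), with 4 UMIs in 4 of 46 cells. Its log2 ratio was −3.66 (−5.55 to −2.29) in the set, −0.82 in the other stromal cells and −3.24 in cells with both Efemp1 and Olfml2a. Il1rl1, the interleukin-33 receptor ST2, was at 157 CPM in 101 WT cells and 25.6 CPM in 13 F592A cells, a log2 ratio of −2.62 (−3.16 to −2.12) against −0.86 in the other stromal cells. Both genes were thus lower in the set and in the other stromal cells, and the differences between these were not tested. Wnt2 stood at −0.98 in Pi16 cells. In Prss23-only cells it was not lower, at 0.68 (−0.25 to 1.60) on 24 WT and 20 F592A UMIs. Cxcl10, an interferon-induced chemokine, was at 43.1 and 8.52 CPM. Il6 went the other way, at 28.4 and 84.4 CPM, with 60 of its 109 F592A UMIs in 1 cell and a log2 ratio of 1.73 in the other stromal cells. Of 15 cytokine genes tested, 1 was at least 2-fold higher and 6 lower.

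Genes of insulin-like growth factor binding went both ways, with 1 of 9 at least 2-fold higher and 2 lower. Igfbp3 was at 19.3 CPM in WT and 83.6 in F592A, with 58 of its 108 F592A UMIs in 1 cell. Igfbp5 and Igfbp6, which bind insulin-like growth factors, were at 1094 and 2158 CPM in WT and at 492 and 1068 CPM in F592A. Their log2 ratios were −1.15 and −1.01, against 0.05 and −0.42 in the other stromal cells. Other secreted genes were lower in F592A. Sfrp4, a secreted Wnt inhibitor, was at 112 and 49.6 CPM, −1.18 against 0.83. Ptn, the heparin-binding growth factor pleiotrophin, was at 373 and 179 CPM, and Col18a1, the source of endostatin, at 154 and 62.0 CPM. The markers of the set itself were lower too: Efemp1 at −0.64, Olfml2a at −0.77, Tnxb at −0.62 and Cd248 at −0.43, with 3 of 4 at least 1.5-fold lower and 0 at least 2-fold. Dpp4, a peptidase of fascial fibroblasts, was at 41.2 and 14.7 CPM, and Tppp3 at 836 and 416 CPM.

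Hp, Serpina3n, C3, Chl1 and the metallothioneins were among the genes higher in the F592A cells. Hp, the haemoglobin-binding protein haptoglobin, was at 40.4 CPM in WT (35.6 to 45.7) and 306 in F592A (277 to 338), a log2 ratio of 2.92 (2.69 to 3.15) against −0.57 in the other stromal cells. It was seen in 48 WT and 12 F592A cells, and 5 F592A cells held 359 of its 395 UMIs. With the rule read after thinning to 10000 UMIs its log2 ratio was 0.04, and in cells with both Efemp1 and Olfml2a 2.68, so the size of the difference rests on few cells. Serpina3n, a secreted protease inhibitor, was at 40.5 and 221 CPM, and C3, the central complement protein, at 67.5 and 273 CPM. Their log2 ratios were 2.44 and 2.01, against 0.80 and 0.35 in the other stromal cells. In F592A, 5 cells held 267 of 352 C3 UMIs. The metallothioneins Mt1 and Mt2, which bind zinc and copper, were at 338 and 152 CPM in WT and 1127 and 538 CPM in F592A. Their log2 ratios of 1.74 and 1.82 stood beside 1.19 and 1.25 in the other stromal cells, and 5 F592A cells held 853 of 1455 Mt1 UMIs. Chl1, a neural cell adhesion molecule, was at 33.3 and 139 CPM, a log2 ratio of 2.07 against 0.57 in the other stromal cells. In F592A, 5 cells held 148 of its 180 UMIs, and 1 cell held 59.

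The matrix genes higher in F592A were high in cells without Efemp1 and Olfml2a UMIs. Other markers were present there: all 13 such F592A cells and all 38 such WT cells had Cd248, and 6 and 31 had Tnxb. Fmod, the tendon proteoglycan fibromodulin, was at 38.6 CPM in WT and 271 in F592A, Mfap4, an elastic fibre protein, at 53.1 and 231 CPM, and Col11a1, a fibrillar collagen chain, at 50.4 and 209 CPM. Matn4, a matrilin, was at 13.1 and 83.6 CPM, Rbp4, the retinol carrier, at 16.3 and 88.3 CPM, and Fxyd6, a modulator of the sodium pump, at 44.3 and 160 CPM. In F592A cells without Efemp1 and Olfml2a UMIs, Fmod was at 634 CPM, against 13.1 in those with both, and Mfap4 at 776 against 11.2 CPM. Of 350 Fmod UMIs in F592A, 219 were in cells with neither gene and 7 in cells with both. Among the rest, 97 were in 1 cell with 1 Efemp1 UMI and 0 of Olfml2a. WT cells split the same way, with Fmod at 150 against 15.1 CPM and Mfap4 at 203 against 17.9 CPM. Between cells with both markers, on 3 to 9 F592A UMIs a gene, the log2 ratio was −0.21 (−1.59 to 0.93) for Fmod, −0.68 (−2.18 to 0.52) for Mfap4, −0.26 (−1.45 to 0.74) for Col11a1 and −0.68 (−3.03 to 1.00) for Rbp4. These 4 intervals include 0, whereas Fxyd6 stood at −1.87 (−4.18 to −0.26). Matn4 had 0 UMIs in F592A. The split was chosen after the values were seen, and 13 F592A cells carry it.

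**Figure D3:**
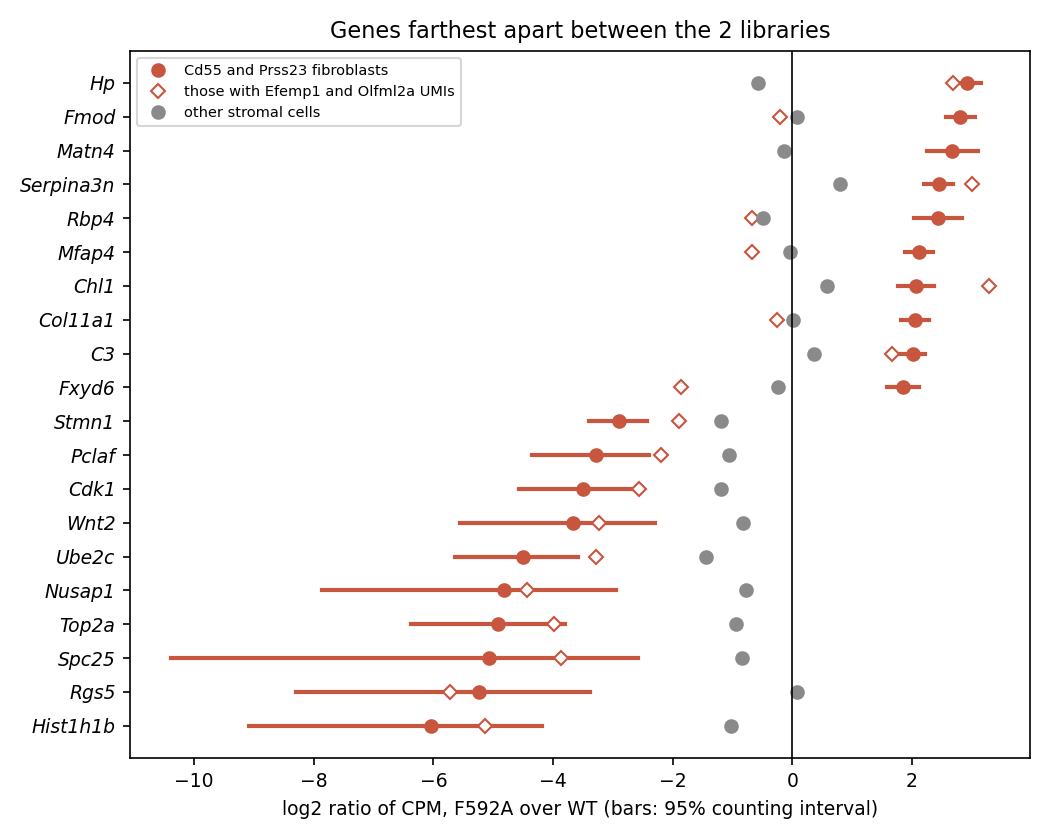
Log2 ratio of CPM, F592A over WT, 1 library each, for the 20 named genes in the Cd55 and Prss23 fibroblasts (with 95% counting intervals), in those with both Efemp1 and Olfml2a UMIs, and in the other stromal cells. Fmod stands at 2.81 in the whole set and at −0.21 in cells with both markers, while Wnt2 stands at −3.66 and −3.24; Matn4 has no point for cells with both markers because it had 0 UMIs in F592A.

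Prg4 encodes lubricin, the lubricant of joint and tendon sheath surfaces. It was at 716 CPM in WT (696 to 738) and 1854 in F592A (1781 to 1930), a log2 ratio of 1.37 (1.30 to 1.44), against 0.20 in the other stromal cells and 1.05 in cells with both Efemp1 and Olfml2a. A single F592A cell held 577 of the 2394 UMIs, and 9 of 230 WT cells and 8 of 46 F592A cells had at least 100. Tagln, a marker of contractile cells, was at 56.5 and 307 CPM, with 154 of 396 F592A UMIs in 1 cell and a log2 ratio of 0.86 in cells with both markers. Both levels thus rested on few F592A cells.

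**Figure D4:**
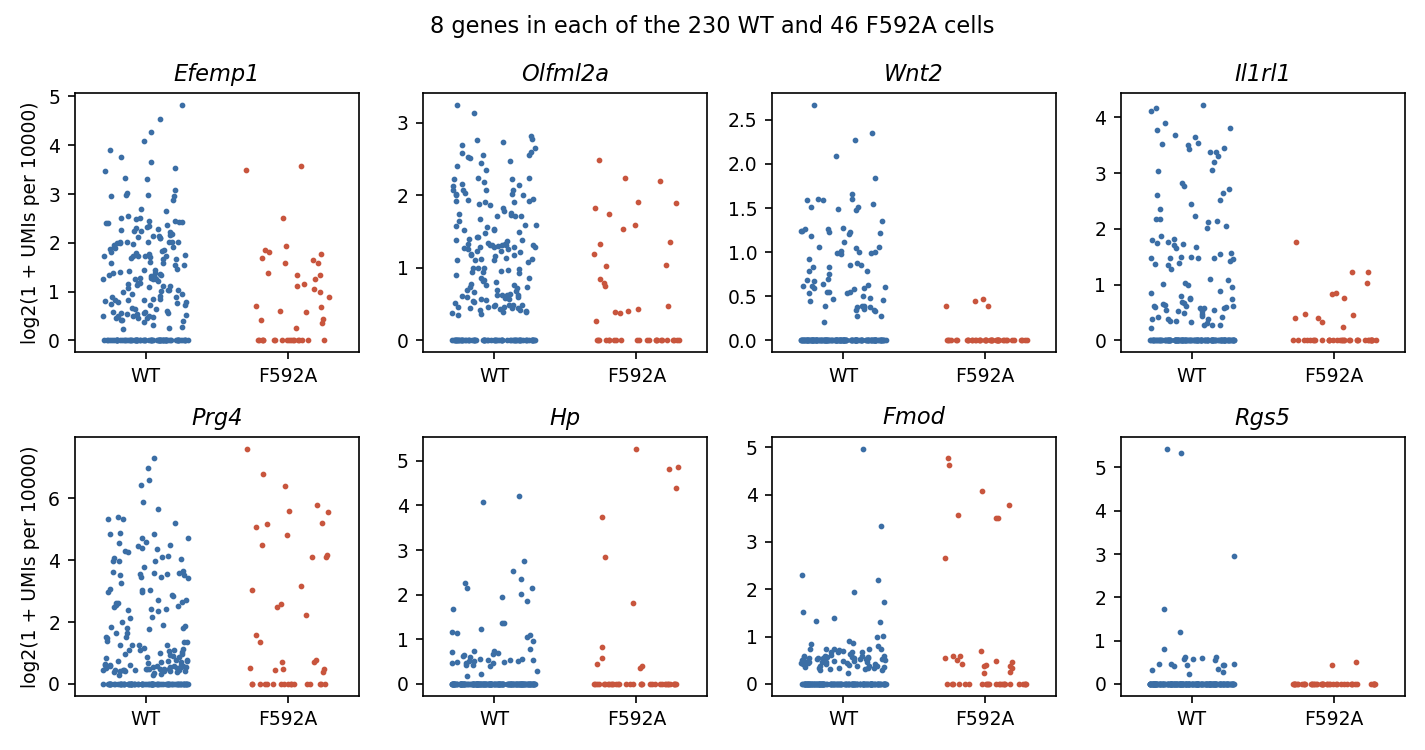
Level of 8 genes in each Cd55 and Prss23 fibroblast of TrkA WT (230 cells) and TrkA F592A (46 cells), as log2(1 + UMIs per 10000 UMIs of the cell), with 1 point per cell spread sideways at random. Wnt2 is seen in 79 WT and 4 F592A cells, and 5 F592A cells hold 359 of the 395 Hp UMIs.

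RNA of other cell types moved between the libraries as well. Of 5 macrophage genes tested, 5 were at least 2-fold lower in F592A, with a median of −2.02 in the set and −1.08 in the other stromal cells. The summed level of all 12 genes on the list was 294 CPM in WT and 81.3 in F592A in the set, and 316 and 160 CPM in the other stromal cells. In the WT cells of the set, 99 of 167 Cd74 UMIs and 70 of 180 C1qa UMIs came from 1 cell each. Without doublets the median was −1.61. Rgs5, a gene of pericytes, was at 58.6 CPM in WT and 1.55 in F592A, with 347 of 370 WT UMIs in 5 cells and a log2 ratio of −1.44 without the cells at 5 or more UMIs. Summed endothelial genes were at 11.9 and 2.32 CPM, Schwann cell genes at 9.03 and 3.10 CPM, and mast cell genes at 0 in both. The part of free RNA or attached cells in these values was not tested.

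The remaining lists stood closer between the libraries, apart from the tenocyte list. Of 39 oxidative phosphorylation genes, 16 TGF-β ligand and receptor genes and 19 hypoxia genes, 0 were at least 2-fold apart. The tenocyte list had 5 of 9 genes at least 2-fold higher in F592A and a median of 1.12, against 0.075 in the other stromal cells. Few cells carried part of this: 5 F592A cells held 268 of 350 UMIs of Fmod and 5 held 182 of 270 of Col11a1, both on this list. In cells with both Efemp1 and Olfml2a these genes stood at −0.21 and −0.26, with intervals that include 0. The list median in those cells was not taken. The complement list had 1 of 10 higher, with a median of 0.47, and C4b at 0.90. Of 20 elastic fibre genes 2 were higher, and Eln, encoding elastin, had 1.18 in the set and 0.59 in the other stromal cells.

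**Figure D5:**
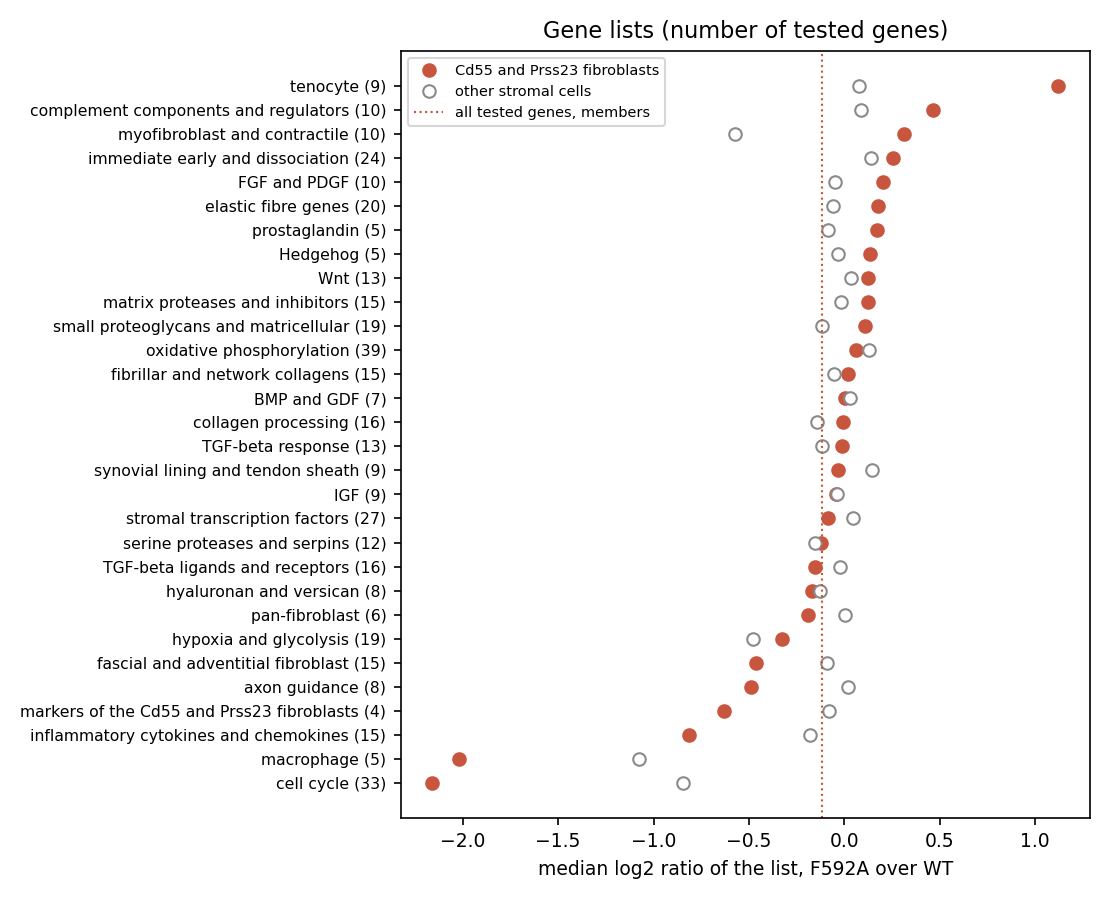
Median log2 ratio of F592A over WT for each gene list, with the number of tested genes in brackets, in the Cd55 and Prss23 fibroblasts (filled) and the other stromal cells (open); the dotted line is the median of all tested genes, −0.12. The cell cycle list stands at −2.16 and −0.85 and the tenocyte list at 1.12 and 0.075. For Fmod, a gene of the tenocyte list, 5 F592A cells hold 268 of 350 UMIs.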

How the data were processed

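Single-cell RNA counts were used from 1 TrkA WT and 1 TrkA F592A library, each a pool of 3 mice. The deposited values are whole UMI counts per gene and barcode. Per the file headers the counts come from Cell Ranger 6.0.1. Version 2.1.1 of the same program stands in the submitters' processing notes, beside Seurat and the mm10 build, and the sources used here do not settle which was used. The members and the gene lists were chosen with earlier results of these data known.

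Cells needed at least 1000 UMIs, at least 500 genes and at most 15% mitochondrial UMIs. Doublets marked by Scrublet in scanpy 1.11.5 (335 of 11599 WT and 217 of 8664 F592A barcodes) were kept and left out as an alternative. UMIs were summed over the cells of a set and library and given as counts per 1000000 UMIs (CPM). A gene was tested with at least 100 UMIs over the sets compared and at least 20 CPM in the higher one. With 1 library per group no test was run and no p-value is given. Levels carry exact Poisson, shares exact binomial, ratios of shares Katz and log2 ratios exact conditional binomial 95% intervals, in Python 3.11.15 with numpy 2.4.6, scipy 1.17.1 and pandas 2.3.3. These cover counting error only. The ratio function was tested on simulated data. TMM factors came from edgeR 4.0.16 in R 4.3.3, which was used for nothing else.

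Named genes were the 15 highest and 10 lowest against the other stromal cells by the smaller of both libraries' log2 ratios, the 10 highest and 10 lowest for F592A over WT, and up to 4 examples per list. Sex-linked, haemoglobin, immunoglobulin, mitochondrial and ribosomal protein genes and genes with placeholder names were left out, and for F592A over WT also genes whose CPM in the set was under 1/4 of that in immune or endothelial cells. Alternatives changed the UMI limits of the rule, doublets, thinning, the mean over cells, the gene minimum and the scaling. Promoter windows were taken from RefSeq on GRCm38.p6, and matched by symbol. Some genes picked by these rules are not reported here.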

Additional observations from a re-analysis of the deposited data

Results flagged for a closer look

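For 6 named genes, the difference between F592A and WT pointed one way in Cd55+ Prss23+ cells and the other way in the other stromal cells, with both counting intervals leaving out 0. With 1 library per genotype the difference between the sets was not tested. Hp stood at a log2 ratio of 2.92 in the set and −0.57 in the other stromal cells. Matn4 stood at 2.67 and −0.14. Rbp4 stood at 2.44 and −0.50, with 59 of its 114 F592A UMIs in 1 cell. Mfap4 stood at 2.12 and −0.038, and Fxyd6 at 1.85 and −0.25. Rgs5 stood at −5.24 and 0.073, with 347 of its 370 WT UMIs in 5 cells. In Prss23-only cells, 5 of the 6 genes had the sign of the set: Matn4 stood at 1.28, Rbp4 at 0.72, Mfap4 at 0.83, Fxyd6 at 0.32 and Rgs5 at −0.44, while Hp stood at −0.42. In Pi16 cells, Matn4 stood at 0.10, Mfap4 at 0.21, Fxyd6 at 0.28 and Rgs5 at −0.63, while Rbp4 stood at −0.14 and Hp at −0.42.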

How the results depend on the processing

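No paired analysis was possible because each group held 1 library. The share of Cd55+ Prss23+ cells was lower in F592A under every alternative tried. Ratios ran from 0.183 (Efemp1 and Olfml2a in place of Cd55 and Prss23, added after seeing the data) to 0.307 (at least 2 UMIs). No alternative changed the limits on Pi16, Gdf10, Acan and Kera, so this range does not cover them. Before these limits, 926 of 11485 WT cells and 556 of 8551 F592A cells were stromal with at least 3 UMIs of both genes. The Pi16 limit left 399 and 145 of them and all 4 limits 230 and 46, so the gap in shares widened at these limits. Against the other stromal cells, 267 genes were higher and 250 lower with at least 5 UMIs of both genes, and 279 and 272 with the rule read after thinning to 10000 UMIs. Added after seeing the data, cells with both Efemp1 and Olfml2a UMIs gave 285 and 285, and Pi16 cells as the reference gave 68 and 72, with Hapln1 at 0.60 in WT. For F592A over WT, the thinned rule gave 32 higher genes in place of 57 and none of the 19 named genes measured kept its size. The signs turned for Matn4 (−0.24), Rbp4 (−3.06), Mfap4 (−1.55) and Fxyd6 (−0.57) under the thinned rule, for Matn4 (−0.75), Rbp4 (−1.17) and Mfap4 (−0.36) with at least 5 UMIs, and for Nusap1 (1.87) among cells with under 2 cell cycle UMIs. They also turned for Fmod (−0.21), Rbp4 (−0.68), Mfap4 (−0.68), Col11a1 (−0.26) and Fxyd6 (−1.87) among cells with both Efemp1 and Olfml2a, on 3 to 9 F592A UMIs a gene and with intervals that include 0 for all 5 but Fxyd6. The ratio of cycling shares was 0.345 after thinning to 2000 UMIs, 0.442 at 4 UMIs and 0.319 on 8 mitotic genes. In each case the cause was not tested. In F592A, 20 CPM is 26 UMIs, against 126 in WT, so low genes there are the least precise.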
